A study of Mus musculus with 8 samples.

Results

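The 40 genes described here act in the G2 phase and in mitosis: mitotic cyclins and kinases, and the genes of the spindle, the kinetochore and cytokinesis. They were chosen by name, from a list of known roles and not by a threshold on these counts, although earlier results of these data were known. All 40 were found among the 49315 genes listed, and all 40 were among the 17163 genes left by the filter on low counts. Messenger RNA was measured by poly-A RNA-seq in whole mouse hearts at embryonic day 9.5 (E9.5), in 4 libraries from wild-type and 4 from homozygous Tbx20EH1Mut embryos, each from 3 pooled hearts. Tbx20 is a T-box transcription factor of the heart, and the Tbx20EH1Mut allele carries a pair of amino acid substitutions in the engrailed homology 1 motif, through which Tbx20 binds TLE corepressors. The comparison asks how the loss of that binding changes transcripts in the heart. No other allele or agent was given to either group. The allele is in the germline, so it is carried by every cell of the embryo, and the line was made by genome editing of embryos from C57BL/6J oocytes and bred to C57BL/6J mice. Mice of both sexes were used in the study, and the sex of the pooled embryos was not used here. The study describes the mutant hearts as tubes without loop or chambers at this age.

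Entry into mitosis is driven by cyclin-dependent kinase 1 (Cdk1) bound to cyclin A or B, which CDC25 phosphatases switch on and which the anaphase-promoting complex ends by marking the cyclins for breakdown. Transcripts of these genes accumulate in G2 and M under the transcription factor Foxm1 and the MuvB complexes, and they are low in cells that have left the cycle. At this stage cardiomyocytes of the mouse heart still divide while they contract.

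Levels are given as CPM, the count of a gene relative to the scaled library size, as mean ± SD of 4 libraries (n = 4) unless each library is listed, wild-type replicates 1 to 4 first and Tbx20EH1Mut replicates 1 to 4 after them. Calls are those of the quasi-likelihood test of edgeR at a Benjamini-Hochberg adjusted p no higher than 0.05, adjusted over all 17163 genes. SE is the standard error of a fitted log2 fold change, derived from its size and the F statistic of that test. Total counts were 33359322 to 49523086 per wild-type library and 36250675 to 38357025 per Tbx20EH1Mut library. Tbx20 itself stood at 353, 365, 379 and 371 CPM in wild type and at 215, 247, 289 and 316 CPM in Tbx20EH1Mut, a log2 fold change of -0.46 (adjusted p = 0.0273). Counts per gene cannot show the changed codons, and the genotype is taken from the labels. On the first principal component, which held 50.5% of the variance, wild-type replicate 1 lay at -13.7 and the other wild-type libraries between -69.6 and -57.0. The Tbx20EH1Mut libraries lay between 25.8 and 88.5 there, with replicate 3 the highest. On the second component (22.3%), wild-type replicate 1 and Tbx20EH1Mut replicate 3 lay at 51.0 and 49.0, and the other libraries between -48.7 and 22.8. Cardiomyocyte markers summed to between 24238 and 41189 CPM in every library. No marker gene matched by name was at 0 in all libraries, including those that the filter on low counts left out. In bulk RNA, fewer dividing cells and less of these transcripts per cell cannot be told apart.

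The promoters of these genes are shown because G2 and M transcription is known to run through a pair of short elements, the cell cycle genes homology region (CHR), searched as TTTGAA or TTCGAA, and the CCAAT box, searched as CCAAT. Both strands were read, so that TTCAAA and ATTGG are matches too, while TTCGAA reads the same on both strands and was counted once. RefSeq windows of GRCm38.p6 from 250 bases before to 50 bases after a listed start were matched by symbol for 33 of the 40 genes and for 27025 genes in all. A CHR was present in 26 of the 33 windows (78.8%) and in 19.4% of all windows. A CHR within 50 bases of the start was present in 24 of the 33 (72.7%) and in 5.29% of all windows. A CCAAT box was present in 26 of the 33 (78.8%) against 37.9% of all, and at least 2 in 18 (54.5%) against 12.2%. Both elements stood together in 23 of the 33 windows (69.7%) and in 7.70% of all. These are matches of letters, not measured binding.

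The stretches of 120 bases below are given 5′ to 3′ on the strand of the gene, in lower case with CHR and CCAAT matches in capitals, and end before the start in RefSeq or that in the count tables, whichever lies further upstream. Ccnb1 (chr13:100786571-100786690, minus strand), Cdc20 (chr4:118437353-118437472, minus strand), Ect2 (chr3:27153879-27153998, minus strand) and Top2a (chr11:99024190-99024309, minus strand) belong to genes called lower in Tbx20EH1Mut hearts. Ccnb2 (chr9:70421555-70421674, minus strand) and Cdk1 (chr10:69352939-69353058, minus strand) belong to genes that were not called.
Ccnb1: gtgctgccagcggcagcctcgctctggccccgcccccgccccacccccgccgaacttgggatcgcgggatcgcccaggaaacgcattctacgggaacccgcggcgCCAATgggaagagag
Cdc20: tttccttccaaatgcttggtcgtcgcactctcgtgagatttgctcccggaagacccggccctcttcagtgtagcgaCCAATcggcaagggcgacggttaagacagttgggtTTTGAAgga
Ect2: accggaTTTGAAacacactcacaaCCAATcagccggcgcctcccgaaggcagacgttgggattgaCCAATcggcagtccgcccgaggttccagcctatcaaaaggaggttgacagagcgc
Top2a: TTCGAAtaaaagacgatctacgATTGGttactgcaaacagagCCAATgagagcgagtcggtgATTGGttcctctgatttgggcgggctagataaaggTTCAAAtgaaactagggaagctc
Ccnb2: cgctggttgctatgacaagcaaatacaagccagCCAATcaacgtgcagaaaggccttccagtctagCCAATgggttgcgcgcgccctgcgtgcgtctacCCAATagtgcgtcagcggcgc
Cdk1: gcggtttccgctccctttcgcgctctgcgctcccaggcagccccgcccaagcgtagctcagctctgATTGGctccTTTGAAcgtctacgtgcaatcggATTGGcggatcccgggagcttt
The Cdk1 stretch holds 1 CHR and 2 CCAAT boxes, and the Top2a stretch 2 CHR and 3 CCAAT boxes. The Ccnb2 stretch holds 3 CCAAT boxes, and the 2 CHR matches of its window lie outside the stretch, at -167 and 5 from the listed start. The Ccnb1 stretch holds 1 of the 2 CCAAT boxes of its window, which has no CHR match. Over all matched windows, both elements stood together in 16 of 23 genes called lower (69.6%) and in 7 of 10 genes not called (70%), a description with no test.

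Transcripts of G2 and mitosis genes were lower in Tbx20EH1Mut hearts. Of the 40 genes, 29 were called lower and 0 higher, where 15.3% of all genes tested were called lower and 14% higher. At an unadjusted p under 0.05 edgeR gave 33 lower and 0 higher, and the share of all genes at that cut is not given. DESeq2 and limma-voom also called 29 lower and 0 higher. The fitted log2 fold change was below 0 for 39 of the 40 and ranged from -1.84 for Kif20a to 0.09 for Cdc25b, with a median of -0.58 against 0.005 over all genes tested. A fall of at least 0.5 on the log2 scale was called for 24 of the 40 (12.1% of all genes), and a fall of at least 1 for 6 (4.16% of all genes), namely Kif20a, Prc1, Bub1b, Foxm1, Nuf2 and Ccnb1. The ranges of the genotypes did not overlap for 28 of the 40, where every Tbx20EH1Mut library lay below every wild-type library (15.8% of all genes). Together the 40 genes took 0.468% to 0.549% of the counts in wild-type libraries and 0.312% to 0.359% in Tbx20EH1Mut libraries. The genes not called were Ccnb2, Cdk1, Cdc25b, Ttk, Ube2c, Cdca3, Aurkb, Birc5, Cenpa, Cenpe and Nusap1. The count of genes called lower was 20 without Tbx20EH1Mut replicate 4 and 30 without wild-type replicate 1. It was 26 with a covariate for foregut markers and 0 with one for erythroid markers (the latter chosen after seeing the data). The erythroid level did not overlap between the genotypes. In the erythroid fit the median log2 fold change of the 40 genes was -0.47, against -0.013 over all genes tested. Kif20a then stood at -0.12, Nuf2 at -0.18, Prc1 at -0.44, Bub1b at -0.54, Foxm1 at -0.57 and Ccnb1 at -0.84. None of these kept a fall of at least 1, while Hmmr went from -0.66 to -1.21.

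**Figure D1:**
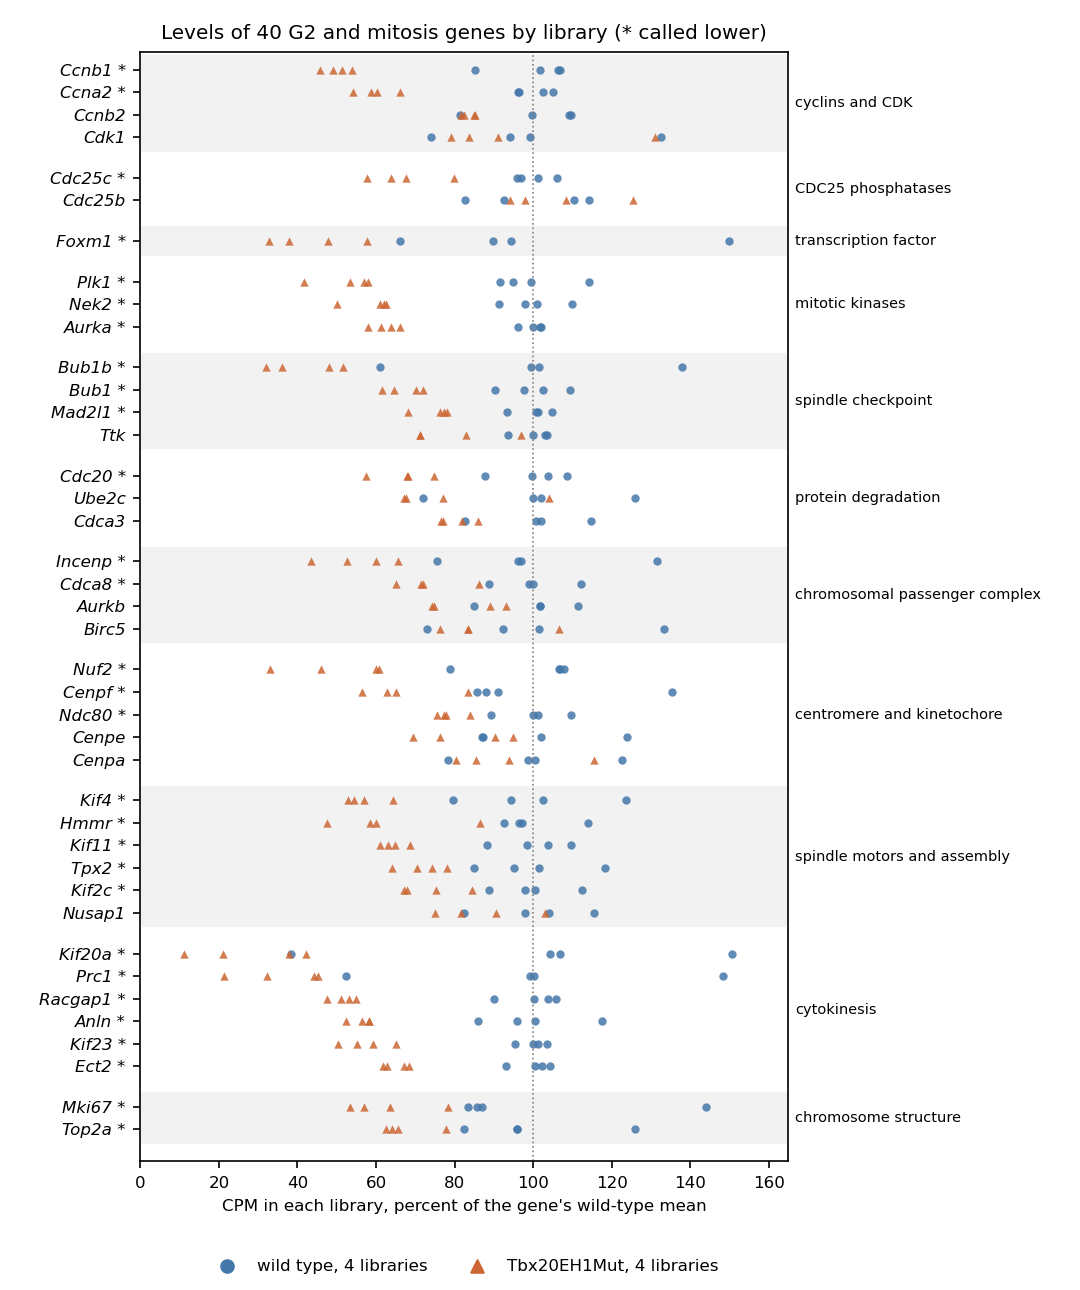
CPM of each of the 40 genes in every library, as a percent of the gene's wild-type mean (x axis), with genes grouped by role and ordered by log2 fold change on the y axis. Circles are the 4 wild-type and triangles the 4 Tbx20EH1Mut libraries, and an asterisk marks the 29 genes called lower; the triangles of 28 genes all lie left of the circles.

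The cyclins that start mitosis did not fall alike. Ccnb1 (ENSMUSG00000041431, chromosome 13 from 100778650 to 100786570 of GRCm38, minus strand), which encodes cyclin B1, stood at 169, 211, 212 and 202 CPM in wild type and at 102, 107, 97.4 and 90.5 CPM in Tbx20EH1Mut. The groups lay far apart, and wild-type replicate 1 was the lowest of its group. The log2 fold change of Ccnb1 was -1.002 (SE 0.112, adjusted p = 3.63e-04). Ccna2, cyclin A2, fell from 207 ± 9.16 to 124 ± 10.1 CPM (-0.74 on the log2 scale, adjusted p = 0.00100). Ccnb2, the other B-type cyclin, went from 102 ± 13.5 to 85.2 ± 1.85 CPM (-0.26, SE 0.114, adjusted p = 0.110). Cdk1 (chromosome 10 from 69336635 to 69352938, minus strand), the kinase these cyclins bind, stood at 308, 172, 230 and 218 CPM in wild type and at 194, 184, 304 and 212 CPM in Tbx20EH1Mut. Its highest libraries were wild-type replicate 1 and Tbx20EH1Mut replicate 3, and the groups overlapped over nearly their whole range. The log2 fold change of Cdk1 was -0.05 (SE 0.206, adjusted p = 0.861).

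The ratio of Ccnb1 to Ccnb2 within a library, which no scaling of libraries can move, was 1.66, 2.54, 1.90 and 1.81 in wild type and 1.22, 1.27, 1.12 and 1.04 in Tbx20EH1Mut. Every mutant library was below every wild-type library, and the log2 ratio was lower by a mean of 0.75 (difference -0.75; exact two-sided permutation test, p = 0.0286, as low as 70 arrangements allow, and 0.0381 adjusted over 4 pairs). With an offset on exon length, an alternative chosen after seeing the data, Ccnb2 was called as well (log2 fold change -0.45, adjusted p = 0.0116) and Ccnb1 stood at -0.96.

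The CDC25 phosphatases, which remove the inhibitory phosphates from Cdk1, differed in their change. Cdc25c stood at 30.7, 27.8, 28.0 and 29.3 CPM in wild type and at 23.1, 16.7, 18.5 and 19.5 CPM in Tbx20EH1Mut, with no overlap (log2 fold change -0.57, SE 0.122, adjusted p = 0.00780). Cdc25b stood at 14.7, 20.4, 16.5 and 19.6 CPM in wild type and at 22.3, 19.3, 17.4 and 16.8 CPM in Tbx20EH1Mut. These ranges overlapped, and the fitted log2 fold change of 0.09 (SE 0.147, adjusted p = 0.670) was the only value above 0 among the 40 genes. The ratio of Cdc25b to Cdc25c rose from a geometric mean of 0.610 to 0.975, with no overlap between the genotypes (log2 difference 0.68; exact two-sided permutation test, p = 0.0286, adjusted p = 0.0381).

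Foxm1 (chromosome 6 from 128362967 to 128376146, plus strand), the forkhead transcription factor of the G2 and M gene program, stood at 42.3, 96.1, 57.6 and 60.5 CPM in wild type and at 37.0, 30.6, 20.9 and 24.3 CPM in Tbx20EH1Mut. Wild-type replicate 2 was highest and replicate 1 lowest, and the latter lay just above the highest mutant library. The log2 fold change was -1.18 (SE 0.253, adjusted p = 0.00800), and it ranged from -1.34 to -0.91 when 1 library at a time was left out.

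Plk1, Aurka and Nek2, the kinases of the centrosomes and spindle poles in the list, were called lower. Plk1, the polo-like kinase of centrosome maturation and mitotic entry, stood at 112, 140, 116 and 122 CPM in wild type and at 70.9, 69.6, 50.9 and 65.1 CPM in Tbx20EH1Mut (log2 fold change -0.93, SE 0.131, adjusted p = 0.00115). Aurka, the Aurora kinase of the spindle poles, stood at 127, 120, 128 and 125 CPM in wild type and at 82.8, 76.5, 79.8 and 72.4 CPM in Tbx20EH1Mut (-0.68, SE 0.0922, adjusted p = 9.16e-04). Neither gene overlapped between the genotypes, and Aurka had an SD of only 3.39 CPM in wild type. Nek2, a centrosome kinase, fell from 60.6 ± 4.69 to 35.7 ± 3.57 CPM (-0.76, adjusted p = 0.00132).

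The Aurora kinases differed in their change too. Aurkb, the kinase subunit of the chromosomal passenger complex, went from 66.7 ± 7.31 to 55.2 ± 6.46 CPM, with overlapping libraries (-0.27, SE 0.123, adjusted p = 0.116). The ratio of Aurka to Aurkb was 2.25, 1.62, 1.88 and 1.85 in wild type and 1.34, 1.29, 1.602 and 1.46 in Tbx20EH1Mut. The highest mutant ratio lay just below the lowest wild-type ratio, a log2 difference of -0.41 (exact two-sided permutation test, p = 0.0286, adjusted p = 0.0381). With the offset on exon length, Aurka stood at -0.78 and Aurkb was called lower (-0.33, adjusted p = 0.0403), and it was also called once the level of foregut markers entered as a covariate (-0.52, adjusted p = 0.0335).

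Of the other subunits of the chromosomal passenger complex, which corrects the attachment of chromosomes to the spindle, Incenp and Cdca8 were called lower and Birc5 was not. Incenp, the scaffold, stood at 79.7, 139, 102 and 102 CPM in wild type and at 69.3, 63.3, 45.9 and 55.6 CPM in Tbx20EH1Mut (log2 fold change -0.85, SE 0.182, adjusted p = 0.00800). Birc5, survivin, stood at 196, 108, 149 and 136 CPM in wild type and at 123, 112, 157 and 123 CPM in Tbx20EH1Mut (-0.19, SE 0.182, adjusted p = 0.438). Incenp did not overlap between the genotypes, and Birc5 did. In wild type the libraries took opposite orders, since replicate 1 was lowest for Incenp and highest for Birc5. Cdca8, borealin, fell from 162 ± 15.6 to 120 ± 14.4 CPM (-0.44, adjusted p = 0.0228). Its call was lost in 5 of 8 fits without 1 library (adjusted p up to 0.0692). It was also lost with upper-quartile scaling (0.0607), with the offset on exon length (0.125) and with a foregut covariate (0.380).

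Of 4 genes of the spindle checkpoint, which holds anaphase until every chromosome is attached, 3 were called lower. Bub1b, which encodes BubR1, stood at 75.4, 170, 123 and 125 CPM in wild type and at 63.8, 59.3, 39.4 and 44.6 CPM in Tbx20EH1Mut (log2 fold change -1.25, SE 0.240, adjusted p = 0.00475). Its wild-type libraries were spread more widely than its mutant libraries, without overlap. Bub1, the related kinase, fell from 85.1 ± 6.84 to 57.1 ± 4.11 CPM (-0.58, adjusted p = 0.00350), and Mad2l1, which inhibits Cdc20, fell from 111 ± 5.41 to 83.3 ± 5.06 CPM (-0.42, adjusted p = 0.0106, but 0.0991 with a foregut covariate and 0.0820 with the offset on exon length). Ttk, the kinase Mps1, stood at 38.7, 37.4, 38.5 and 34.97 CPM in wild type and at 36.2, 31.0, 26.6 and 26.6 CPM in Tbx20EH1Mut. Tbx20EH1Mut replicate 1 reached into the wild-type range, and the log2 fold change was -0.31 (SE 0.123, adjusted p = 0.0796, and 0.0353 without that library). The ratio of Bub1 to Bub1b went from a geometric mean of 0.716 to 1.12, with overlap between the genotypes. The log2 difference of 0.65 did not pass (exact two-sided permutation test, p = 0.0857, also after adjustment).

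**Figure D2:**
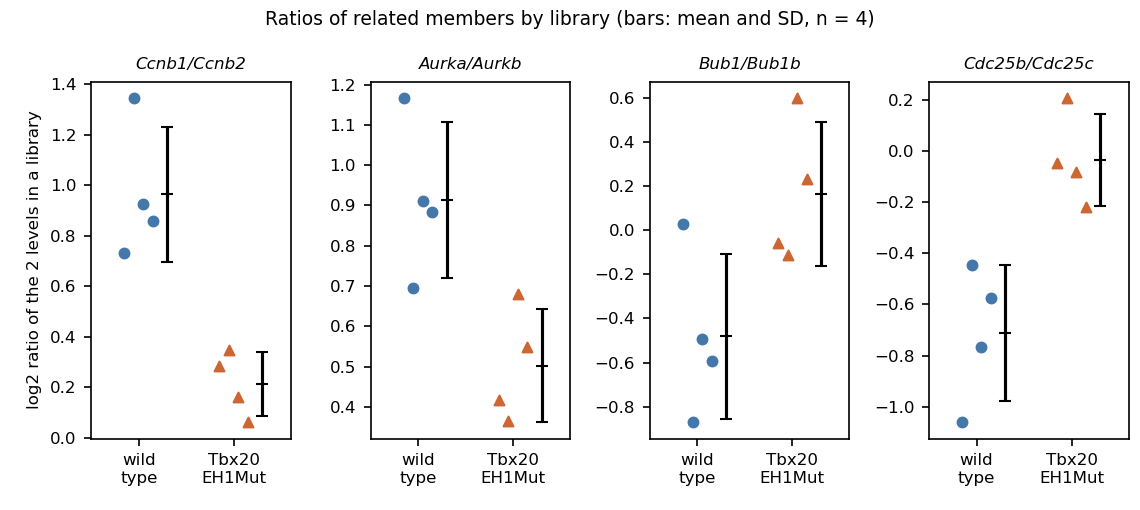
The log2 ratio of the levels of 2 related genes in each library (y axis) for 4 pairs, with wild-type libraries as circles, Tbx20EH1Mut libraries as triangles, and bars for mean and SD (n = 4). The genotypes do not overlap for Ccnb1/Ccnb2, Aurka/Aurkb and Cdc25b/Cdc25c, and they overlap for Bub1/Bub1b.

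Genes that direct protein breakdown in mitosis were called in 1 of 3 cases. Cdc20, the activator of the anaphase-promoting complex, stood at 123, 153, 146 and 140 CPM in wild type and at 105, 95.9, 95.3 and 80.8 CPM in Tbx20EH1Mut, with no overlap (log2 fold change -0.58, SE 0.116, adjusted p = 0.00614). Cdca3, a substrate adaptor that acts on the mitotic inhibitor Wee1, stood at 119, 85.4, 104 and 105 CPM in wild type and at 84.6, 79.0, 88.7 and 79.6 CPM in Tbx20EH1Mut. Wild-type replicate 2 was below the highest mutant library, and the log2 fold change of -0.32 was not called (adjusted p = 0.0650, and 0.0188 without that library). Ube2c, the ubiquitin-conjugating enzyme of the complex, went from 343 ± 75.7 to 271 ± 59.5 CPM (-0.34, SE 0.194, adjusted p = 0.207).

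Of the 5 centromere and kinetochore genes 3 were called lower. Nuf2, a subunit of the NDC80 complex, stood at 40.03, 54.8, 54.3 and 54.2 CPM in wild type and at 30.9, 30.5, 16.8 and 23.4 CPM in Tbx20EH1Mut (log2 fold change -1.002, SE 0.196, adjusted p = 0.00528). Cenpa, the histone H3 variant of centromeres, stood at 298, 190, 239 and 244 CPM in wild type and at 208, 195, 281 and 228 CPM in Tbx20EH1Mut (-0.09, SE 0.161, adjusted p = 0.694). Nuf2 did not overlap between the genotypes, and Cenpa overlapped widely. Ndc80, the partner of Nuf2, fell from 49.6 ± 4.18 to 39.0 ± 1.81 CPM (-0.35, adjusted p = 0.0279), and Cenpf, a large kinetochore protein, from 107 ± 25.4 to 71.7 ± 12.4 CPM (-0.58, adjusted p = 0.0333). These calls were lost in 5 of 8 fits without 1 library for Ndc80 and in 6 of 8 for Cenpf, with adjusted p up to 0.0899 and 0.0917. Ndc80 also lost its call with a foregut covariate (0.112), with a replicate block (0.0696), with upper-quartile scaling (0.0655) and without a filter (0.0561). Cenpe, the kinetochore motor, went from 77.6 ± 13.5 to 64.1 ± 9.22 CPM (-0.28, SE 0.149, adjusted p = 0.184).

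Spindle motors and assembly factors were called lower in 5 of 6 cases. Kif4, a chromosome-bound kinesin, stood at 45.5, 70.7, 58.6 and 54.0 CPM in wild type and at 36.8, 32.6, 30.3 and 31.1 CPM in Tbx20EH1Mut (log2 fold change -0.81, SE 0.142, adjusted p = 0.00324). Nusap1, which bundles spindle microtubules, stood at 119, 84.7, 100.8 and 107 CPM in wild type and at 83.9, 77.1, 106 and 93.04 CPM in Tbx20EH1Mut (-0.19, SE 0.137, adjusted p = 0.308). Kif4 showed no overlap, while Tbx20EH1Mut replicates 3 and 4 of Nusap1 lay among the wild-type libraries. Kif11, the motor that pushes the spindle poles apart, fell from 114 ± 10.4 to 73.4 ± 3.72 CPM (-0.64, adjusted p = 0.00223). Hmmr, a spindle assembly factor, fell from 84.7 ± 8.06 to 53.4 ± 13.97 CPM (-0.66, adjusted p = 0.0176, and 0.0842 with a foregut covariate), Tpx2, the activator of Aurka, from 162 ± 22.7 to 116 ± 9.75 CPM (-0.48, adjusted p = 0.0184) and Kif2c, a microtubule depolymerase, from 59.6 ± 5.81 to 43.9 ± 4.80 CPM (-0.44, adjusted p = 0.0194). Without Tbx20EH1Mut replicate 4, the calls of Hmmr, Tpx2 and Kif2c were lost (adjusted p = 0.0563, 0.0650 and 0.0675). Without wild-type replicate 3, those of Tpx2 and Kif2c were lost (0.0528 and 0.0533), and without wild-type replicate 4 that of Kif2c (0.0510).

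All 6 cytokinesis genes were called lower, with a median log2 fold change of -0.89. Kif20a, the kinesin that brings Plk1 to the central spindle, stood at 39.1, 153, 109 and 106 CPM in wild type and at 38.4, 42.8, 11.2 and 21.3 CPM in Tbx20EH1Mut. Wild-type replicate 1 lay inside the mutant range, so the groups overlapped in that library. The log2 fold change of -1.84 was the lowest of the 40 genes and the least precise (SE 0.459, adjusted p = 0.0154, and 0.0538 without Tbx20EH1Mut replicate 4). With the erythroid covariate, chosen after seeing the data, it was -0.12 (adjusted p = 0.972). Of the exon bases of Kif20a, 33.2% are shared with Cdc23 on the opposite strand, and since the strand setting of the counting is not given, reads of these 2 genes could not be told apart there. Prc1, which crosslinks the microtubules of the central spindle, stood at 39.9, 113, 75.6 and 76.3 CPM in wild type and fell to 33.7, 34.5, 16.2 and 24.6 CPM in Tbx20EH1Mut (-1.48, SE 0.315, adjusted p = 0.00771). Its order of libraries was like that of Kif20a, with wild-type replicate 1 and Tbx20EH1Mut replicate 3 lowest in their groups.

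Racgap1, the GTPase-activating subunit of centralspindlin, had the lowest adjusted p of the 40 genes, and fell from 154 ± 10.7 to 79.3 ± 4.96 CPM (-0.95 on the log2 scale, SE 0.101, adjusted p = 2.65e-04). Kif23, the motor subunit of the same complex, fell from 123 ± 4.23 to 70.5 ± 7.73 CPM (-0.80, adjusted p = 8.59e-04). Anln, anillin of the contractile ring, fell from 107 ± 14.1 to 60.2 ± 2.88 CPM (-0.83, adjusted p = 0.00106). Ect2, the exchange factor that switches on RhoA at the furrow, stood at 77.0, 86.3, 83.1 and 84.8 CPM in wild type and at 56.6, 55.5, 51.2 and 52.0 CPM in Tbx20EH1Mut (-0.62, SE 0.0924, adjusted p = 0.00146). For these 4 genes every mutant library was below every wild-type library, and each call held in all 8 fits without 1 library.

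Both genes of chromosome structure were called lower. Mki67, which encodes the proliferation antigen Ki-67, stood at 173, 287, 166 and 171 CPM in wild type and at 156, 113, 106 and 127 CPM in Tbx20EH1Mut (log2 fold change -0.67, SE 0.199, adjusted p = 0.0317). Top2a, the topoisomerase that untangles sister chromatids, stood at 313, 478, 364 and 364 CPM in wild type and at 296, 249, 243 and 237 CPM in Tbx20EH1Mut (-0.57, SE 0.147, adjusted p = 0.0178). Wild-type replicate 2 was the highest library for both, and the groups came close to each other without overlap. Without that replicate the log2 fold change of Mki67 was -0.43 (adjusted p = 0.0510), and the call was lost in 4 of 8 fits without 1 library. Top2a lost its call without Tbx20EH1Mut replicate 4 (0.0612).

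**Figure D3:**
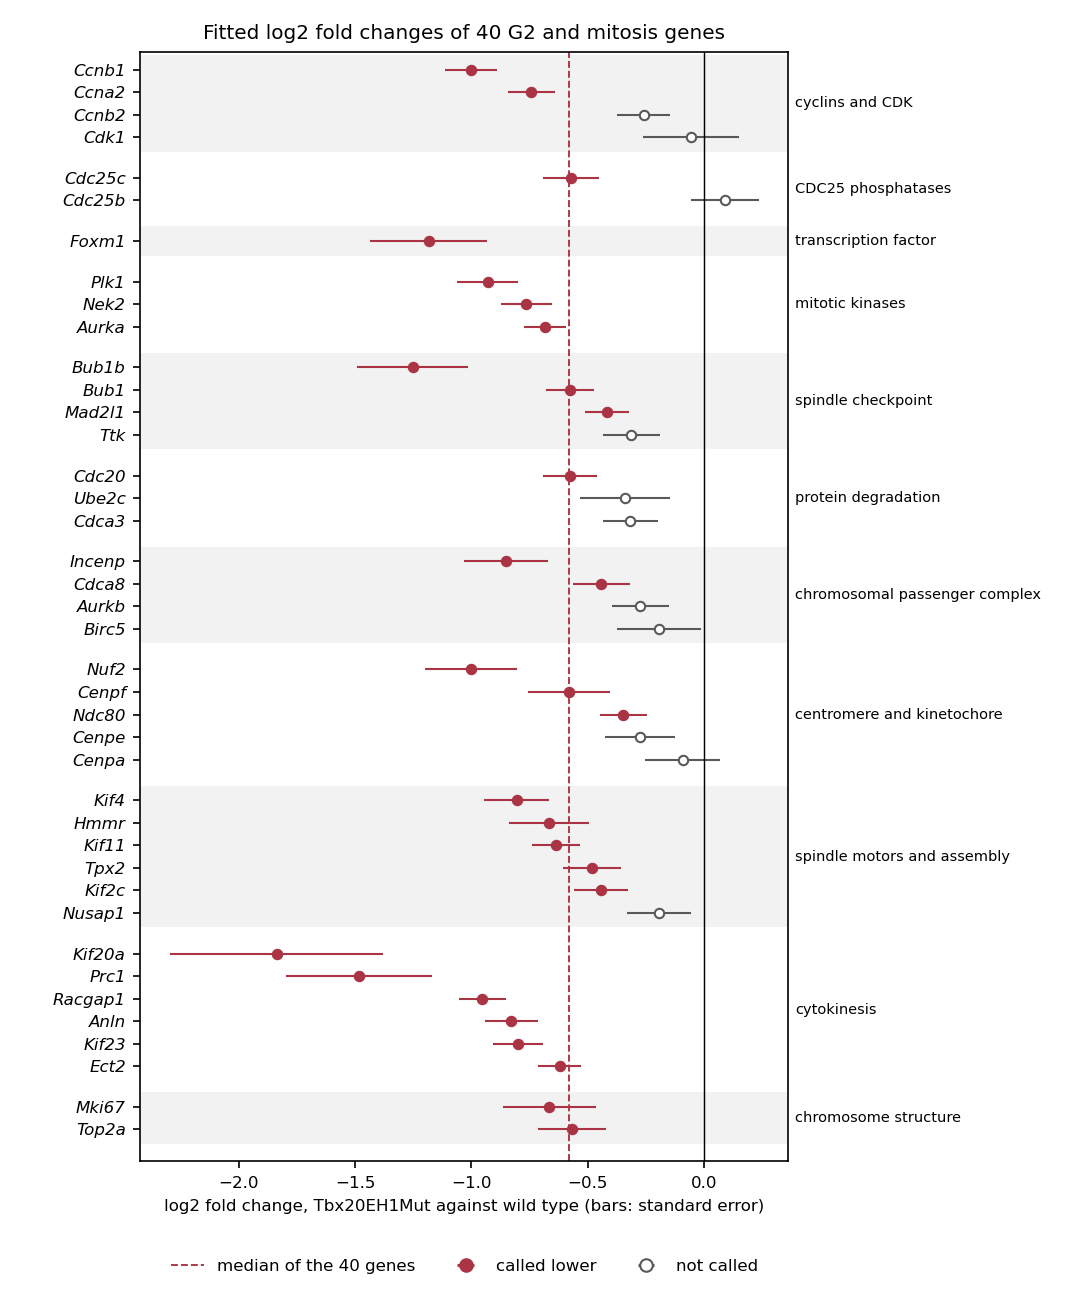
Fitted log2 fold change of Tbx20EH1Mut against wild type for each of the 40 genes (x axis; bars are the standard error), by role. Filled points were called lower and open points were not; the dashed line is the median of -0.58, and 39 of 40 points lie left of 0.

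Levels per kilobase use the exon length listed for each gene with the counts, which need not be that of the transcripts present. Per kilobase of exon, the most abundant of these transcripts was Ube2c, with 132 ± 29.1 CPM per kb in wild type and 104 ± 22.9 in Tbx20EH1Mut. In wild type it was followed by Cdc20 at 75.3 ± 6.69, Cdk1 at 67.4 ± 16.4, Ccnb2 at 66.6 ± 8.82 and Plk1 at 55.6 ± 5.55 CPM per kb, where neighbours lay within 1 SD of each other from Cdc20 to Ccnb2. In Tbx20EH1Mut the order was Cdk1 at 64.9 ± 16.01, Ccnb2 at 55.7 ± 1.21 and Cdc20 at 50.5 ± 5.40 CPM per kb, again with overlapping SDs. The lowest level per kilobase was that of Cdc25b in wild type (4.78 ± 0.712) and of Prc1 in Tbx20EH1Mut (3.31 ± 1.05). Kif20a held rank 17 of 40 in wild type (26.8 ± 12.4 CPM per kb) and rank 31 in Tbx20EH1Mut (7.49 ± 3.89).

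Libraries of the same genotype differed, with some of the 40 genes high and others low in the same library. Wild-type replicate 1 held the lowest wild-type level for 25 of the 40 genes and the highest for 9. Wild-type replicate 2 held the highest level for 25. Tbx20EH1Mut replicate 3 was lowest of the mutant libraries for 14 genes and highest for 11. Of the 9 genes that peaked in wild-type replicate 1, 7 also peaked in Tbx20EH1Mut replicate 3, among them Cdk1, Ube2c, Birc5 and Cenpa. Of the 25 genes at their lowest in wild-type replicate 1, 12 were also lowest in Tbx20EH1Mut replicate 3, among them Kif20a, Prc1, Bub1b and Foxm1. Across the 40 genes, the log2 deviations of these 2 libraries from the means of their genotypes had a Pearson r of 0.88, and across 10947 genes of at least 5 CPM an r of 0.67, given as a description since genes are not independent replicates. Of the 9 genes that peaked in wild-type replicate 1, 7 were not called, and of the 25 that were lowest there, 23 were called lower. With both libraries left out, an alternative chosen after seeing the data, 29 of the 40 genes were called lower and the median log2 fold change was -0.62.

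**Figure D4:**
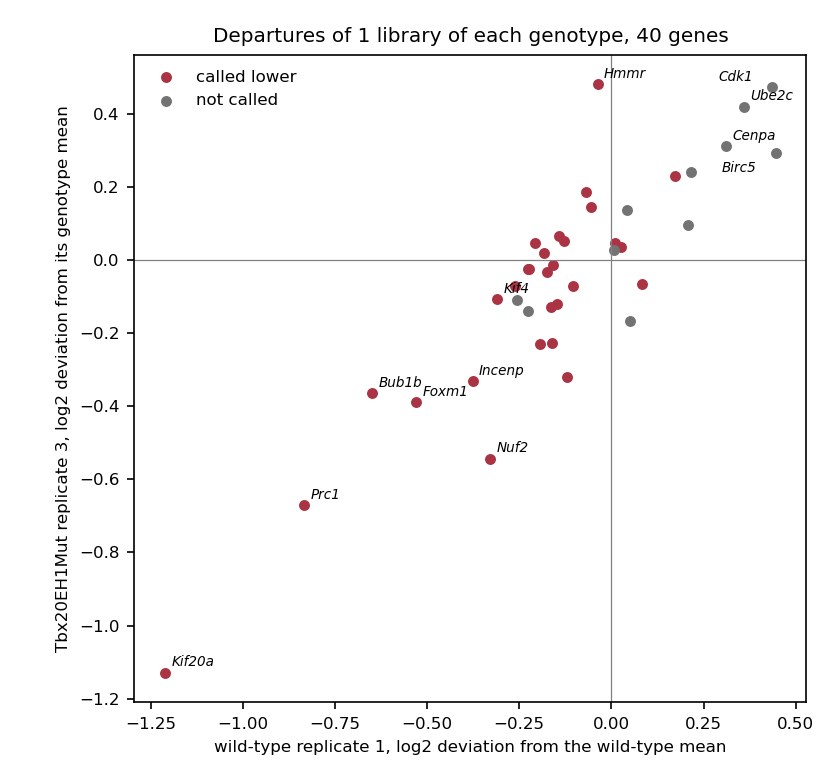
Deviation of each of the 40 genes from the mean of its genotype, in log2(CPM + 0.5), in wild-type replicate 1 (x axis) and Tbx20EH1Mut replicate 3 (y axis). Dark red points were called lower and grey points were not; Kif20a, Prc1, Bub1b and Foxm1 lie low in both libraries and Cdk1, Ube2c, Birc5 and Cenpa high in both.

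Library deviations also moved with exon length. Across the 10947 genes, Spearman's rho between length and deviation was 0.56 in wild-type replicate 2 and -0.38 in wild-type replicate 1, and between -0.34 and 0.23 in the other libraries, while the log2 fold change had a rho of -0.22 with length. Over the 40 genes the rho was 0.41 in wild-type replicate 2 and -0.26 for the log2 fold change. The 40 genes had a median exon length of 4440 bases and the 10947 genes one of 4283 bases. With an offset on exon length, 29 of the 40 genes were called lower and the median log2 fold change was -0.55.

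Other G2 and M genes were lower in part. Of 142 such genes in 10 lists, 63 were called lower and 1 higher, with a median log2 fold change of -0.33, beside 15.3% lower and 14% higher over all genes tested. The count lower was 34 without Tbx20EH1Mut replicate 4, 38 without wild-type replicate 4 and 40 without wild-type replicate 3. The count higher was 6 without wild-type replicate 1 and 13 with the foregut covariate, where 63 were lower. Over all genes, these fits called 6586 (3349 lower) and 6095 (3192 lower), against 5024 (2618 lower) in the main fit. With the erythroid covariate 0 were called in either direction, and 19 were lower at an unadjusted p under 0.05 in edgeR. The share of all genes at that unadjusted cut is not given. Other spindle genes were called lower in 23 of 29 cases, with Kif14, a kinesin of the midbody, at -1.31 (19.5 to 7.87 CPM, adjusted p = 0.00616) and Haus1, a subunit of the augmin complex, at 0.23 (adjusted p = 0.198). The outer kinetochore had 8 of 15 and the inner kinetochore 6 of 19 called lower, condensin 3 of 8, and the other spindle checkpoint genes 2 of 5. The other cytokinesis genes had 2 of 8, with Iqgap3 at -1.25 (adjusted p = 0.00438) and Rhoa, the small GTPase of the furrow, at -0.05 (adjusted p = 0.724).

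The remaining lists hold regulators of the cell cycle and of sister chromatids, and their counts are given as a description beside the 15.3% of all genes called lower. Subunits and regulators of the anaphase-promoting complex were called lower in 4 of 17 cases, from Cdc23 at -1.19 (adjusted p = 0.0167), with the shared exons named above, to Anapc11 at 0.54 (adjusted p = 0.112). Cohesin and separase genes were called in 4 of 14 cases, with Espl1, separase, at -0.86 (adjusted p = 0.0215) and Pttg1, securin, at 0.67 (adjusted p = 0.105). The control of mitotic entry had 6 of 14 lower, with Cdc25a at -0.72 (adjusted p = 0.00488), and the 1 gene called higher, Mnat1, a subunit of the CDK-activating kinase, at 0.56 (adjusted p = 0.00841). In the DREAM and MuvB complexes 5 of 13 were lower, with Mybl2, the B-Myb partner of MuvB, falling from 68.0 to 28.2 CPM (-1.27, adjusted p = 0.00967).

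Genes of the S phase, which precedes G2, were lower in part. Of 50 listed genes, 23 were called lower (12 without Tbx20EH1Mut replicate 4) and 0 higher, at a median log2 fold change of -0.47 (15.3% of all genes tested were lower and 14% higher). At an unadjusted p under 0.05 edgeR gave 34 lower and 0 higher. With the erythroid covariate 0 of the 50 were called, and 5 were lower at an unadjusted p under 0.05. The share of all genes at that unadjusted cut is not given for either fit. Rrm2, the ribonucleotide reductase subunit that makes deoxynucleotides, fell from 261 to 117 CPM (-1.16, adjusted p = 9.35e-05), and Ccne1, cyclin E1, from 73.7 to 36.2 CPM (-1.03, adjusted p = 1.61e-04). Rpa3, a subunit of the single-strand binding protein, stood at 0.34 (adjusted p = 0.364). Whether the G2 and mitosis genes differed from the S phase genes was not tested.

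**Figure D5:**
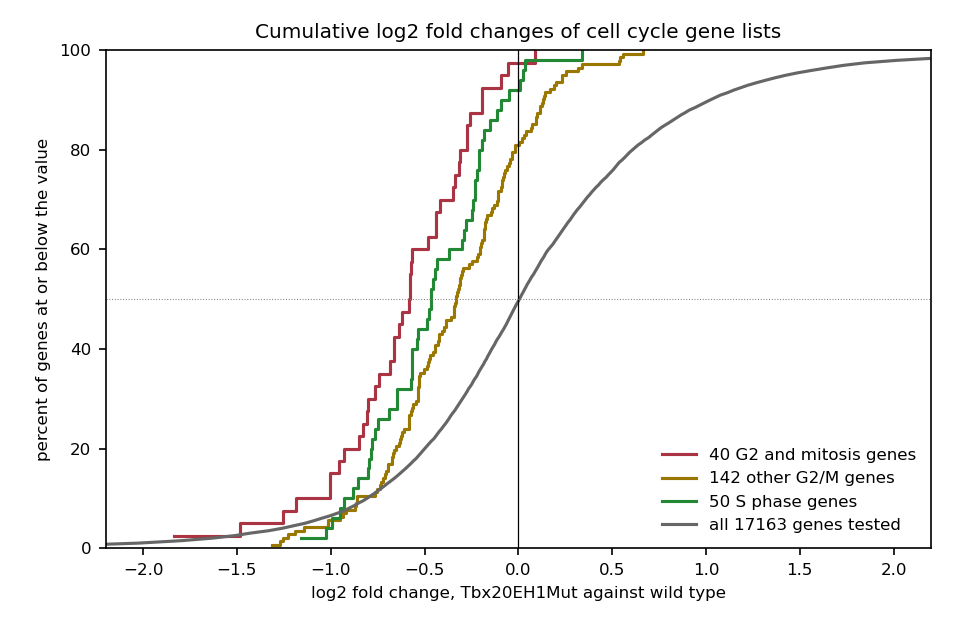
Cumulative percent of genes (y axis) at or below each log2 fold change of Tbx20EH1Mut against wild type (x axis) for the 40 G2 and mitosis genes, 142 other G2/M genes, 50 S phase genes and all 17163 genes tested. The curves cross 50% at medians of -0.58, -0.33, -0.47 and 0.005.

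Markers of several other cell types moved with genotype beside these genes, where 15.3% of all genes were called lower and 14% higher. Of 6 erythroid markers 5 were called lower, and their sum was 27.3 to 74.9 CPM in wild type and 10.5 to 20.2 CPM in Tbx20EH1Mut. Of 10 foregut epithelium markers 6 were called higher (190 to 299 CPM against 657 to 900 CPM), and of 8 endothelial markers 5 were called higher (660 to 778 CPM against 888 to 979 CPM). Of 10 cardiomyocyte markers 1 was called higher, with sums of 24238 to 35419 CPM in wild type and 26087 to 41189 CPM in Tbx20EH1Mut. Epicardial markers were called higher in 2 of 5 cases (42.1 to 116 CPM against 108 to 131 CPM) and neural crest markers in 2 of 4 (57.4 to 65.8 CPM against 75.4 to 89.3 CPM). Of 4 neural tube markers 1 was lower and 1 higher (9.73 to 20.7 CPM against 9.11 to 14.7 CPM). The part of the endothelial, epicardial and neural lists in the result was not tested. With the mean foregut marker level as a covariate, 26 of the 40 genes were called lower and 0 higher, 34 had a log2 fold change below 0, and 1 was higher at an unadjusted p under 0.05 in edgeR. With the mean erythroid marker level as a covariate, chosen after seeing the data, 0 of the 40 and 86 of all genes were called. In that fit 13 of the 40 were lower at an unadjusted p under 0.05 in edgeR. The share of all genes at the unadjusted cut is not given for either covariate. With the erythroid covariate a log2 fold change below 0 was found for 38 of the 40. Their median was -0.47, against -0.013 over all genes tested, with Kif20a at -0.12 and Hmmr at -1.21. The erythroid level did not overlap between the genotypes, so its part in the result and that of the genotype cannot be told apart.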

How the data were processed

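Whole E9.5 hearts gave 8 poly-A libraries (4 wild type, 4 Tbx20EH1Mut), sequenced at a company. The authors deposited raw counts per Ensembl gene, not normalized, 1 table per library. The submitters' processing notes name Trimmomatic 0.36, STAR 2.5.2b and GRCm38 (mm10). The counting tool and its strand setting are not given in the sources used here. Reads of overlapping genes and close copies (such as Ccnb1-ps, 2 to 50 counts) are therefore uncertain. Besides Kif20a, the called genes Kif4, Ccna2 and Prc1 share 15.1%, 12.5% and 11.1% of their exon bases with Pdzd11, Exosc9 and Rccd1 on the opposite strand. Identifiers were matched to symbols of GENCODE M21 for 48970 of 49315 genes.

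The genotypes were compared with edgeR 4.0.16 in R 4.3.3 (filterByExpr, TMM, glmQLFit, glmQLFTest, genotype as the only term), with Benjamini-Hochberg adjustment and calls at 0.05; the log2 fold change limit of 0.5 follows the study's methods. Pair ratios were compared by exact two-sided permutation tests. The fit was tested on simulated data. Every pair of libraries within a genotype differed beyond counting noise, and each was taken as 1 replicate of 3 pooled hearts. Depth was 33359322 to 49523086 counts, and precision is given as the SD or SE.

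Members and lists were chosen with earlier results of these data known. Every member is reported, with values per library for the largest and smallest log2 fold change of each role, and other genes only from the 2 at either end of a list. Alternatives were RLE, upper-quartile and library-size scaling, DESeq2 1.42.0, limma-voom (limma 3.58.1), other filters, a replicate block, a foregut covariate and leaving out each library; 3 more (exon length offset, erythroid covariate, 6 libraries) were chosen after seeing the data. Tables were joined and plotted with Python 3.11.15, numpy 2.4.6, pandas 2.3.3, scipy 1.17.1 and matplotlib 3.10.9.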

Additional observations from a re-analysis of the deposited data

Results flagged for a closer look

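In 4 of 88 groups of 4 libraries tested (40 genes in each genotype, and the pair ratios), 1 library stood apart from the other 3 by Dixon's test at the 95% level, and chance alone flags about 1 in 20 groups. Cenpf stood at 145 CPM in wild-type replicate 2 and at 91.97 to 97.7 CPM in the other wild-type libraries. Mki67 stood at 287 CPM in the same library and at 166 to 173 CPM in the others. Nuf2 stood at 40.03 CPM in wild-type replicate 1 and at 54.2 to 54.8 CPM in the others. Nek2 stood at 30.3 CPM in Tbx20EH1Mut replicate 4 and at 36.9 to 37.9 CPM in the other mutant libraries.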

How the results depend on the processing

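The number of G2 and mitosis genes called lower was 29 with RLE size factors, DESeq2, limma-voom and at least 10 counts in every library, 27 with upper-quartile scaling, 30 with library size alone and 28 without a filter. No log2 fold change of the 29 changed sign under any setting. With a replicate block it was 26, and Kif2c, Ndc80 and Mki67 lost their calls. Deviations of same-numbered libraries correlated at -0.27, 0.34, 0.060 and 0.060 over the 17163 genes tested. Differently numbered ones ranged from -0.42 (wild-type replicate 1, Tbx20EH1Mut replicate 2) to 0.41 (wild-type replicate 2, Tbx20EH1Mut replicate 1). Whether the numbers pair the libraries cannot be told from these values. Leaving out 1 library at a time gave 20 to 30 of the 40 genes, 3001 to 6586 of all genes, 1496 to 3349 of all genes lower, 34 to 68 of the other G2/M genes and 12 to 28 of the S phase genes. The lowest counts came without Tbx20EH1Mut replicate 4 (20 of the 40, 34 other G2/M, 12 S phase). The other G2/M count was 40 without wild-type replicate 3 and 38 without wild-type replicate 4. In the same fits the pair differences ranged from -0.83 to -0.62 for Ccnb1/Ccnb2, from -0.48 to -0.33 for Aurka/Aurkb and from 0.56 to 0.76 for Cdc25b/Cdc25c, where the exact test cannot go below 0.0571. With the erythroid marker level as a covariate, edgeR called 86 genes, 20 of them lower. It called 0 of the 40 genes (also 0 at a log2 fold change of -0.5), 0 other G2/M genes and 0 S phase genes. Of these lists, 13, 19 and 5 genes were lower at an unadjusted p under 0.05 in that fit, and the share of all genes at that cut is not given. The median log2 fold change of the 40 genes was -0.47, with Kif20a at -0.12, Nuf2 at -0.18 and Hmmr at -1.21. Among single genes, upper-quartile scaling lost the calls of Cdca8 and Ndc80, no filter that of Ndc80, the foregut covariate those of Mad2l1, Cdca8, Ndc80 and Hmmr, and the offset on exon length those of Mad2l1, Cdca8 and Hmmr. Calls were gained for Aurkb with the foregut covariate, for Cdca3 with library size alone, and for Ccnb2, Cdca3 and Aurkb with the offset. Ccnb2, Ttk, Cdca3 and Aurkb were each called in 1 of 8 fits without 1 library. The causes were not tested.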
